A study of Schizosaccharomyces pombe with 15 samples.

Results

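The deposited Atf1 list holds the places on the fission yeast chromosomes where the authors' peak caller found DNA enriched after precipitation of FLAG-tagged Atf1. All of its records were taken as members, which gave 1995 peaks of the 5439 in the series' 4 lists. The other lists cover Pcr1, Deb1 and Orc1. The study used chromatin immunoprecipitation followed by sequencing (ChIP-seq) in Schizosaccharomyces pombe and asks, by its design text, where Atf1/Pcr1, Deb1 and the origin recognition complex sit in the genome. Cells were grown in rich medium at 32 °C, shifted to 18 °C for 2 hours, and cross-linked at that temperature for 30 min.

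The Atf1 strain was homothallic (h90) and carried ade6-M210, leu1-32 and ura4-D18, a replacement of the cenH repeat by tet operators with ura4, and atf1 tagged with 3 copies of FLAG beside the hph marker. The labels give 2 precipitations from this strain, both with the strain number SPY7036. They name the untagged precipitation, 1 sample of SPY1468, together with the same list. That strain carried h90, ade6-M210, leu1-32 and ura4-D18 but neither the tag nor the cenH replacement, so tag and replacement cannot be told apart in a comparison of the strains. The labels do not say how the untagged sample was used. Another 2 precipitations, from a strain that also lacked s1 and s2, are not analysed here. All samples were cold-shifted, so the list shows where Atf1 was after the shift and no change caused by it. There is 1 Atf1 list, hence no replicate to set beside any value, and the read depth behind it is unknown.

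Atf1 is a bZIP transcription factor of the ATF/CREB family. It binds DNA as a dimer with Pcr1 at sites related to the cyclic AMP response element (CRE), whose core reads TGACGT. In fission yeast it is phosphorylated by the stress-activated kinase Sty1 and is known for switching on protective genes under osmotic, oxidative and nutritional stress, for roles in mating and meiosis, and for helping to nucleate heterochromatin at the mating-type locus.

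The sequences under the highest peaks are shown because they let the reader see the core beside the measured fold. Fold here is the authors' value for a peak, the enrichment over their control at the summit. The summit is the point of highest enrichment. The following reference sequences (RefSeq assembly ASM294v3) come from 5 of the peaks of highest fold that had TGACGT within 100 bp of the summit, on the chromosome stretches where list and reference share coordinates. They are written 5′ to 3′ on the strand that reads TGACGT, and the capitals mark the core nearest the summit. The mug143 sequence holds another TGACGT, left in lower case.
svf1, chr3:1513381-1513466, plus strand: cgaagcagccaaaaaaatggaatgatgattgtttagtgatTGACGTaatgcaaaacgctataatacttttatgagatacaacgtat
pqr1, chr1:2423873-2423958, minus strand: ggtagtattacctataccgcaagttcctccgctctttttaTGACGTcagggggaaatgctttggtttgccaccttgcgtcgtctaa
cds1, chr3:740684-740713, minus strand: tttacaatttacTGACGTcatttaggaacg
mug143, chr1:1550024-1550053, plus strand: atactgacgtgtTGACGTtttgaagtggct
yme1, chr3:2287334-2287419, plus strand: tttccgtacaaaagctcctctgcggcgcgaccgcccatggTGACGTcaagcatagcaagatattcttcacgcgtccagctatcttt

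The core at pqr1, cds1 and yme1 runs on into the palindrome TGACGTCA, and the core at svf1 into TGACGTAA. The core lay 51 bp to the left of the summit at svf1. At the other 4 genes it lay 3 to 9 bp from the summit. The peaks belong to genes of unlike function. Svf1 is a ceramide transport protein, pqr1 encodes a ubiquitin ligase, cds1 the replication checkpoint kinase and yme1 a mitochondrial protease.

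The peak of highest fold in the whole list, at SPAC186.03, and those at nhp6 and gut2 had no TGACGT within 100 bp of their summits. The reference within 40 bp of their summits is shown because each holds TGACATCA, on the plus or the minus strand, which differs from the palindrome at the fifth letter. The capitals mark it, and the lines give the plus strand. This octamer was noticed in these sequences, and its counts are given below with and without these 3 peaks.
SPAC186.03, chr1:5534601-5534681: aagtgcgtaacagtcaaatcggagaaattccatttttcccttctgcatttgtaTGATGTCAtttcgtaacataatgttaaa
nhp6, chr1:1381605-1381685: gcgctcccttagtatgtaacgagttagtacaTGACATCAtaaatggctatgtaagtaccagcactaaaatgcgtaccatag
gut2, chr3:1843592-1843672: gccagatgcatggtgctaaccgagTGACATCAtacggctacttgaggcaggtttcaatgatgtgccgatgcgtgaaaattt

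The 20 peaks of highest fold had folds of 5.19 to 5.90 and widths of 599 to 1454 bp. Of these, 17 summits lay upstream of the nearest start of a protein-coding gene and 12 lay within 200 bp upstream of it. The list was led by SPAC186.03, an L-asparaginase gene, at a fold of 5.90 with the summit 538 bp upstream of its start. Then came svf1 at 5.87 and 153 bp upstream, nhp6, a high-mobility-group chromatin protein gene, at 5.78 and 58 bp upstream, and pqr1 at 5.77 and 92 bp upstream. The peak near SPBC609.01, which encodes a Dis3-like exonuclease family protein, had 5.61, and the peak at gut2, the mitochondrial glycerol-3-phosphate dehydrogenase gene, had 5.52.

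Other peaks among the 20 differed in their place. The cds1 peak, also 5.52, had its summit 631 bp downstream of the cds1 start, in an intron or untranslated stretch and in the promoter window of cab5. The yme1 peak, at 5.44, had its summit 1950 bp into the gene, in coding sequence and in no promoter window. The peak of rank 9, at 5.47, covered the start of SPBC3E7.17 with the summit 128 bp downstream of it, and this place is also 932 bp upstream of hsp16, a small heat shock protein gene. The mug143 peak, at 5.49, lay 36 bp upstream of its start, within the untranslated or intron stretch of a neighbour. The peak at atf21, which encodes another ATF/CREB family factor, had a fold of 5.39 and a summit 1112 bp upstream of the start, and no summit lay in the promoter window of atf21.

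The rest of the 20 were upstream peaks of fold 5.19 to 5.45. Those named here were nearest to opi10, SPAC4H3.03C, SPAC1F12.10C, ubp15, osh6, gpx1, SPAC110.06 and trx1. Gpx1 is a glutathione peroxidase and trx1 encodes thioredoxin, both of which act on peroxides or oxidised proteins. The trx1 summit, 106 bp upstream of trx1, fell in the coding sequence of the neighbouring SPAC7D4.08. All 20 overlapped a Pcr1 peak, as did 96.6% of the 499 peaks of highest fold, against 61.1% of all 1995 Atf1 peaks. A Deb1 peak overlapped 3 and an Orc1 peak 5 of the 20. The shares were 30.1% and 34.5% among the 499 peaks of highest fold. They were 13.9% and 24.7% among all 1995 Atf1 peaks. An overlap is any shared base, so a wider peak can meet another peak more readily. Median width was 686 bp in the 499 and 264 bp over the list, and the part of width in these shares was not tested. Pcr1, Deb1 and Orc1 peaks covered 4.45%, 1.26% and 5.28% of the genome. Words were counted at 16 of the 20 summits, of which 9 had TGACGT within 100 bp. Another 3 had TGACATCA and no TGACGT, and 4 (atf21, SPAC4H3.03C, SPAC110.06 and trx1) had neither.

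Over the whole list the folds ran from 1.45 to 5.90 with a median of 2.25 and quartiles of 1.94 and 2.84. The caller's −log10 q, a measure of its confidence, ran from 1.69 to 72.5 with a median of 7.60. Most peaks were thus low, and 416 had a fold of at least 3. Width ran from 41 to 2538 bp with a median of 264 bp and quartiles of 152 and 493 bp. Width went with fold, with a Spearman correlation of 0.74 over the 1995 peaks. Both come from the same reads and the same caller, so this is a description of the list. The peaks were split by fold into 4 bins of equal size. Median width was 138 bp in the lowest bin, 210 and 318 bp in the middle bins, and 686 bp in the highest.

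**Figure D1:**
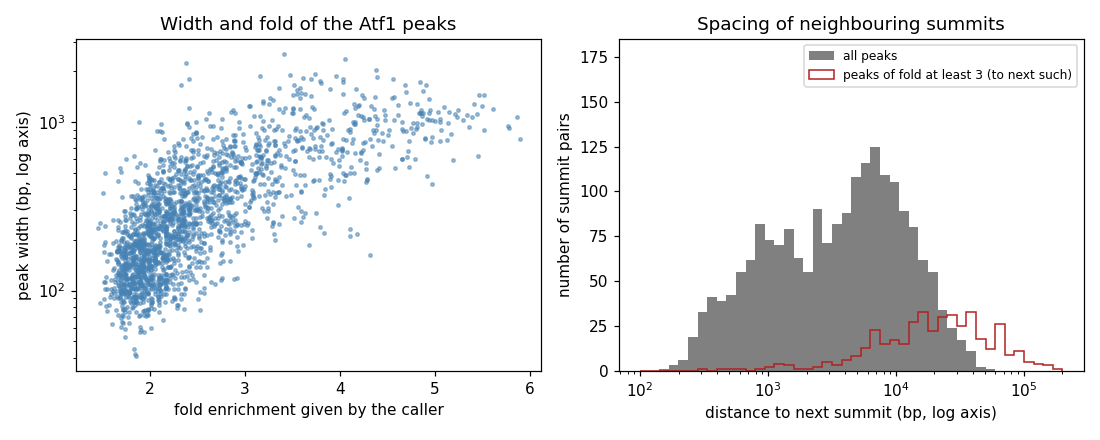
Left, width in bp (log axis) against fold enrichment for each of the 1995 Atf1 peaks. Right, number of neighbouring summit pairs by distance in bp (log axis), for all peaks (grey, median 4013 bp) and for the 416 peaks of fold at least 3 taken alone (red line, median 21337 bp).

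The widest peaks were not the highest. The widest, 2538 bp at a fold of 3.41, covered the place 778 bp upstream of eno101, an enolase gene of glycolysis. A peak of 2354 bp and fold 4.06 lay at ght2, a hexose transporter gene, with its summit 145 bp upstream. The third was in the coding sequence of met26, a methionine biosynthesis gene, with a width of 2233 bp but a fold of 2.38, and its summit lay 1439 bp into the gene. Next were peaks of 2048 bp upstream of gcd1 (fold 4.38) and 1925 bp upstream of SPBC19C7.04C (fold 3.74). The fold ranks of these 5 were 97 to 838 of 1995.

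Atf1 peaks lay all along the 3 chromosomes. There were 855 on chromosome 1, 727 on chromosome 2 and 413 on chromosome 3, or 15.3, 16 and 16.8 per 100 kb. Lengths were those of the reference, except that chromosome 2 was taken to run to the last position in the lists. Median fold was 2.23, 2.25 and 2.29, and median width 269, 245 and 276 bp. Peaks covered 5.86%, 5.99% and 6.75% of the 3 chromosomes and 6.08% of the genome. Of the 124 whole bins of 100 kb, none was empty. The bins held 3 to 28 peaks with a median of 15.5 and quartiles of 13 and 18.

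Neighbouring summits were a median of 4013 bp apart, with quartiles of 1238 and 8747 bp and a range of 162 to 50420 bp over 1992 pairs. The histogram of distances had a shoulder near 1000 bp. Of the pairs, 408 (20.5%) were under 1000 bp apart, and in 311 of these both peaks had a fold under 3. In 6 of them both peaks had a fold of at least 3. A single protein-coding gene held both summits in 95 of the close pairs. The other 1279 summits (64.1% of the list) had no neighbour within 1000 bp. Peaks of fold at least 3, taken alone, had a median spacing of 21337 bp with quartiles of 10096 and 39726 bp.

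The closest summits were 162 bp apart in the coding sequence of bst1, at folds of 2.25 and 2.18. Next came 178 bp in srm1, the spermidine synthase gene, at folds of 1.85 and 2.05. Both pairs lay in coding sequence and were low. Runs of summits with steps under 1000 bp numbered 308, and 5 of them held 5 or more. The longest had 7 summits with folds of 1.63 to 3.17 at tlh2, a helicase gene at the right end of chromosome 2 (4547620 to 4551989 in the coordinates of the list). A run of 6 lay at zfs1, with folds of 1.67 to 2.61. Telomeric helicase genes have near-identical copies, so where reads of this run came from is uncertain.

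The largest gap, 50420 bp, lay on chromosome 2 between the peaks at SPBC16A3.02C and ogm4 and spanned 19 protein-coding genes. Another gap of 46229 bp on that chromosome, between clc1 and SPBC3H7.05C, spanned 20 genes. On chromosome 1 the gap between pyp2 and SPAC14C4.10C was 45953 bp long and also spanned 20 genes. The peaks beside the gaps were not all low, with folds of 1.97 to 4.94 and the highest at pyp2, which encodes a phosphatase that inactivates Sty1.

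Most Atf1 summits lay outside protein-coding genes, and between genes means between these throughout. Of the 1980 summits that could be placed on the reference, 1161 (58.6%, exact 95% interval 56.4 to 60.8) were between protein-coding genes, which make up 23.2% of the bases. Coding sequence held 627 (31.7%, 29.6 to 33.8), on 57.1% of the bases. Untranslated regions and introns held 192 (9.70%, 8.43 to 11.1), on 19.8% of the bases. The intervals cover counting error only. Median fold was 2.42 between genes, 2.24 in untranslated or intron sequence and 2.05 in coding sequence. A fold of at least 3 was reached by 26.5% of summits between genes, 28.1% of those in untranslated or intron sequence and 7.97% of those in coding sequence.

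**Figure D2:**
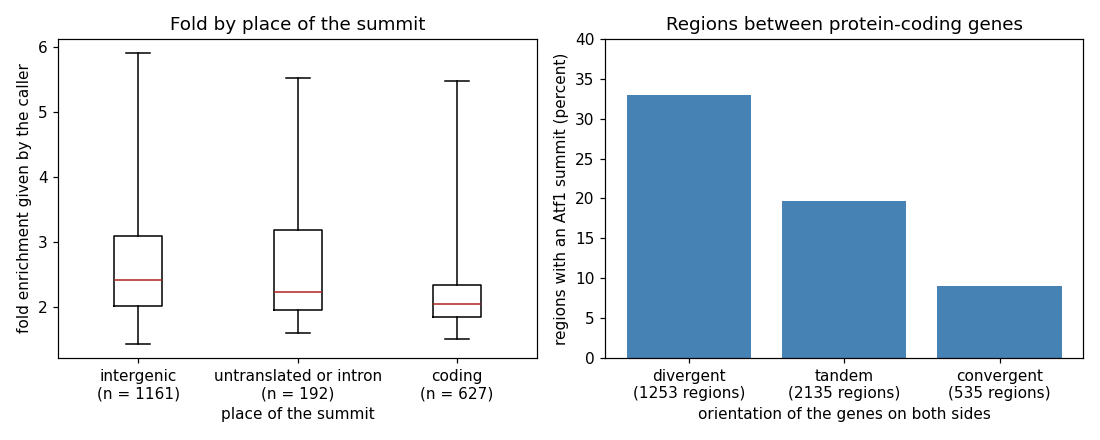
Left, fold enrichment of Atf1 peaks by the place of the summit, with the median (red), quartiles (box) and range (whiskers), with medians of 2.42, 2.24 and 2.05. Right, percent of regions between protein-coding genes that hold an Atf1 summit, by the orientation of the flanking genes: 33.0% of divergent, 19.7% of tandem and 8.97% of convergent regions.

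Regions between genes differed by the orientation of their neighbours. A divergent region, with a gene start on both sides, held a summit in 414 of 1253 cases (33.0%). A tandem region, with 1 start, held a summit in 420 of 2135 cases (19.7%), and a convergent region, with none, in 48 of 535 (8.97%). Divergent regions were also longer, with a median of 791 bp against 340 bp for tandem and 159 bp for convergent regions. Per 100 kb the 3 kinds held 42.0, 39.5 and 28.3 summits. For peaks of fold at least 3 the densities were 13.0, 9.87 and 4.52 per 100 kb. Per length, divergent and tandem regions were thus nearer to each other than by share of regions, and convergent regions were lowest on both scales.

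Summits gathered just upstream of gene starts. The median signed distance to the nearest annotated start was −71 bp, where the minus sign means upstream, and the median absolute distance was 434 bp. Density was highest from 100 to 51 bp upstream, at 92.2 summits per 100 kb of positions with that distance. It was 68.2 from 150 to 101 bp upstream and 45.9 in the last 50 bp before the start. In the first 50 bp inside the gene it was 14.2, and from there to 1000 bp downstream it was 6.91 to 11.3. Upstream of 200 bp it was 10.0 to 25.2.

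In all, 574 summits (29.0%) lay within 200 bp upstream of the nearest start. For peaks of fold at least 3 the share was 174 of 412 (42.2%), and for the lower peaks 400 of 1568 (25.5%). Of the higher peaks 81.8% were upstream of the nearest start, against 54.8% of the lower ones. The starts are those of annotated transcripts, which include the 5′ untranslated region where it is known.

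**Figure D3:**
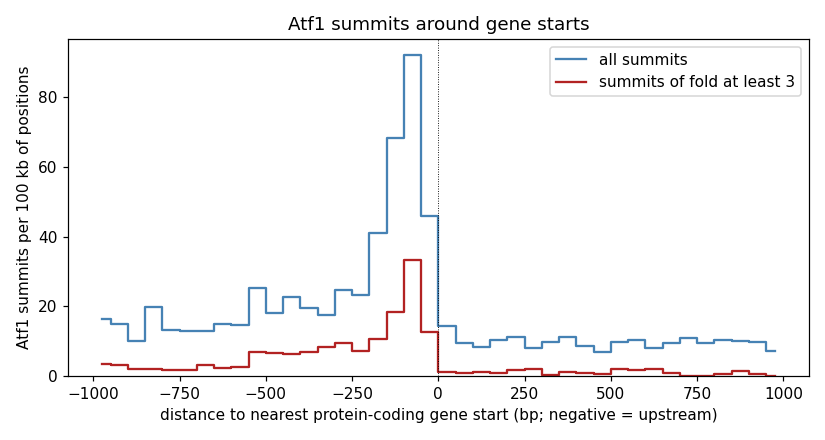
Atf1 summits per 100 kb of positions against the signed distance to the nearest protein-coding gene start (bp, negative is upstream), in bins of 50 bp, for all summits (blue) and for those of fold at least 3 (red). Both lines peak from 100 to 51 bp upstream, at 92.2 and 33.4 summits per 100 kb.

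Position, width and sequence changed together along the fold. The promoter window reached from 1000 bp before to 200 bp after a protein-coding start, and such windows took up 40.2% of the bases. They held 51.1% of summits in the lowest bin by fold, 52.8% and 62.2% in the middle bins and 75.5% (71.5 to 79.2) in the highest. Coding sequence held 45.1%, 42.3%, 27.1% and 12.1% (9.40 to 15.4) in the same order. The core TGACGT stood within 100 bp of 9.46%, 9.50%, 12.2% and 31.3% (26.8 to 36.0) of summits. The intervals of the lowest and second bins overlapped in all 3 measures, and the highest bin stood apart from the lowest by more than those intervals.

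**Figure D4:**
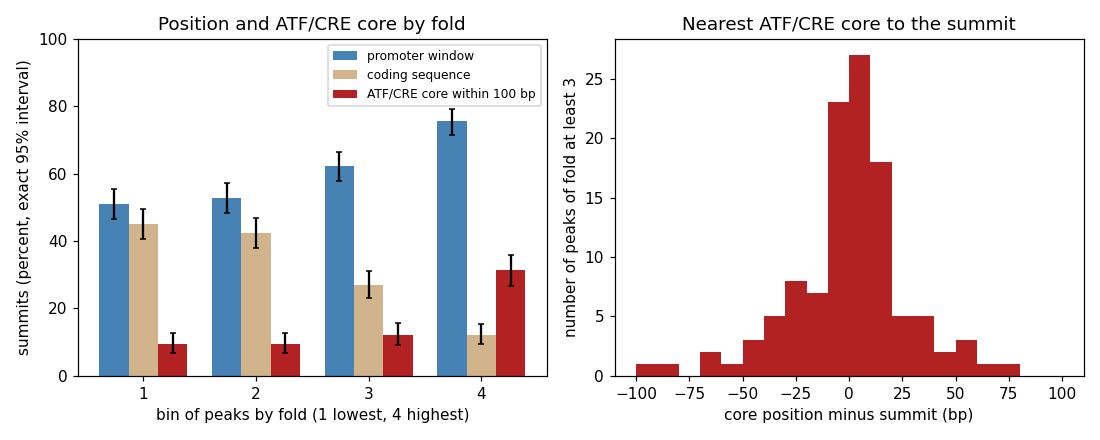
Left, percent of summits in a promoter window, in coding sequence and with the ATF/CRE core within 100 bp, for 4 bins of the list by fold, with exact 95% intervals, where the highest bin has 75.5%, 12.1% and 31.3%. Right, number of peaks of fold at least 3 by the position of the nearest core minus the summit in bp, for the 113 that have a core within 100 bp.

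Non-coding genes were looked at in the same way. tRNA genes, whose transcripts carry amino acids to the ribosome, took up 0.105% of the bases and held 61 summits (3.08%). Of the 171 tRNA genes 87 (50.9%) had a summit within 250 bp, at a median fold of 2.50 for summits inside the gene. Long non-coding RNA genes held 48.4% of summits, close to the 47.7% of bases they cover. Of the 65 snoRNA genes 18 (27.7%) had a summit within 250 bp, and of the 47 rRNA genes 15 (31.9%). The share was 21.4% for the 7110 long non-coding RNA genes, and 7.74% of all bases had a summit within 250 bp. A longer gene takes in more bases, so shares of genes of unlike length are not on 1 scale. Neighbouring tRNA genes can share a summit, and copies of a tRNA or rRNA gene can share reads.

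The promoter windows of 1340 of 5095 protein-coding genes (26.3%) held an Atf1 summit. A summit of fold at least 3 was present in the windows of 384 genes (7.54%). These shares are the background for every gene list that follows. In the lists a gene counts as having a summit only if one lies in its promoter window. The lists were chosen with earlier results of these data known, so their shares are not independent of that choice. Of the 1340 genes 1202 had 1 summit, 131 had 2 and 7 had 3. The highest fold in the window had a median of 2.44 over the 1340 genes. A summit can serve several genes, and 273 of the 1196 summits in promoter windows lay in the windows of 2 genes. The genes with 3 summits included rpl42, a ribosomal protein gene whose top fold was 3.02, gal7, a galactose metabolism gene, at 2.66, rmr1 at 2.60, and the uncharacterised SPAC15E1.02C at 3.02 and SPAC1687.14C, a calcium-binding protein gene, at 2.53.

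**Figure D5:**
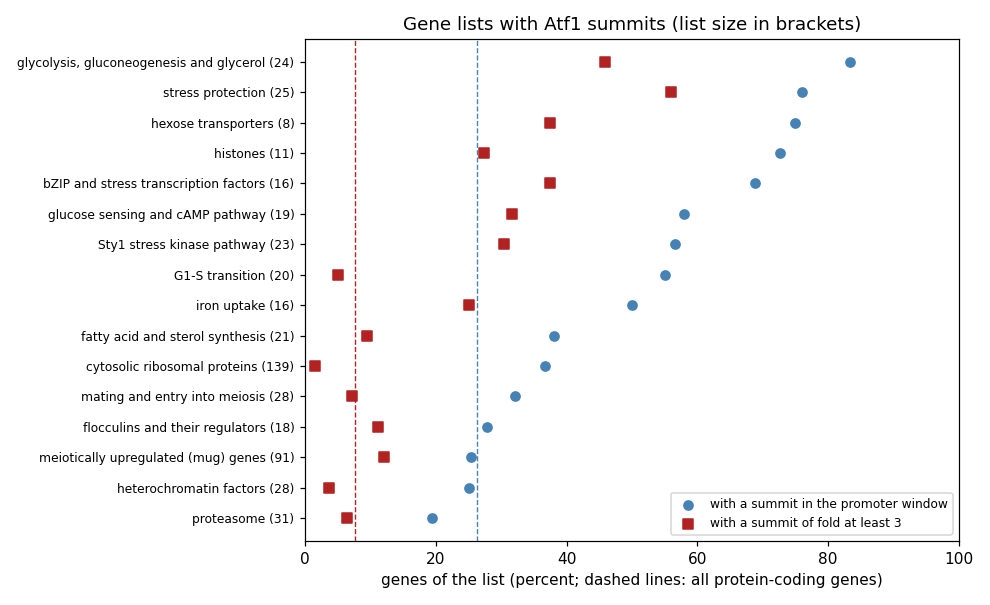
Percent of genes of each of 16 lists with an Atf1 summit in the promoter window (circles) and with one of fold at least 3 (squares). Dashed lines mark all protein-coding genes, at 26.3% and 7.54%. Glycolysis and stress protection lie far to the right of both lines, and the proteasome and heterochromatin factors to the left of both.

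Genes of stress protection, which make chaperones, antioxidant enzymes and protective sugars, were mostly bound. A summit stood in the window of 19 of 25 (76.0%, against 26.3% of all genes), and 14 of 25 had one of fold at least 3 (56.0%, against 7.54%). Their top folds had a median of 4.14. The highest were hsp16 at 5.47, gpx1 at 5.24 and trx1 at 5.19. They were followed by tpx1, a peroxiredoxin gene, at 4.86 with a summit 114 bp upstream, and tps1, whose enzyme makes trehalose phosphate, at 4.51 with a summit 728 bp upstream. No summit lay in the windows of gst1, obr1, pgr1, sod2, tpp1 and zym1.

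Of the Sty1 stress kinase pathway, 13 of 23 genes (56.5%) had a summit and 7 had one of fold at least 3. These 7 stood at several levels of the pathway. Pyp2, the phosphatase, had 4.94 with a summit 995 bp upstream, and srk1, a kinase activated by Sty1, had 4.88 with a summit 41 bp upstream. Ptc1, a phosphatase of the PP2C family, had 4.40 and pyp3, a tyrosine phosphatase, 3.98. Mpr1, the phosphotransfer protein upstream of the kinase, had 3.85. The remaining genes at a fold of at least 3 were the sensor kinase genes mak1 at 3.59 and mak2 at 3.12. Of the kinase cascade itself, wis1 had 2.47 and sty1 2.33, and win1 and wis4 had no summit in their windows. The other bound genes, prr1, ptc2, rnc1 and ptc4, were below 3, down to 1.55 at ptc4. No summit lay in the windows of pyp1, ptc3, cmk2 and csx1.

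Of 16 genes for bZIP and stress transcription factors, 11 (68.8%) had a summit and 6 had one of fold at least 3. The Atf1 partner gene pcr1 led them, with a fold of 4.65 (rank 73 of 1995) at chromosome 1, 4253064 to 4253968, and a summit 32 bp upstream of its start. Next were scr1, a repressor gene of glucose repression, at 3.89, pap1, the AP-1-like factor gene of the oxidative stress response, at 3.59, loz1, a gene of zinc homeostasis, at 3.18 and hsr1 at 3.17. The atf1 gene itself had 2 peaks. The peak at chromosome 2, 1545685 to 1546936, had a fold of 3.04 (rank 409) and a summit 39 bp upstream of the start. The second, at 1548882 to 1549334, had a fold of 2.43 and a summit in coding sequence 3046 bp into the gene. This strain carries the FLAG tag and the hph marker at atf1.

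Of the list for glucose sensing through cyclic AMP, 11 of 19 genes (57.9%) had a summit and 6 had one of fold at least 3. Git5, the beta subunit of the G protein, had 5.15 and gpa2, the alpha subunit, 4.30. Cyr1, adenylate cyclase, had 4.73, cgs2, the phosphodiesterase that removes cyclic AMP, 4.87, and cgs1, the regulatory subunit of protein kinase A, 4.22. Scr1, with 3.89, also stands in this list. The other bound genes, hsp90, rst2, sds23, git7 and ssn6, had 1.47 to 2.88. No summit lay in the promoter windows of pka1, the catalytic subunit gene, the receptor gene git3, git1, git11, cap1, ssp2, tup11 and tup12.

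Carbon metabolism had the highest share of the 16 lists for a summit of any fold, while stress protection had the highest for a fold of at least 3. Of 24 genes of glycolysis, gluconeogenesis and glycerol, 20 (83.3%) had a summit and 11 had one of fold at least 3. Gut2 had 5.52, gld1, glycerol dehydrogenase, 4.84, hxk2, a hexokinase, 4.69, pfk1, phosphofructokinase, 4.52, and gpd1, a glycerol-3-phosphate dehydrogenase induced in osmotic stress, 4.21. The gluconeogenic gene fbp1, a textbook Atf1 target named here for that reason and outside the rule for named genes, had 2.34 with a summit 929 bp upstream. Hexose transporter genes had a summit at 6 of 8, at ght3 (4.77), ght8 (4.36), ght2 (4.06), ght7 (2.96) and ght4 (2.07) among them. The windows of ght1 and ght6 held none.

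Smaller lists varied. Histone genes had a summit at 8 of 11 (72.7%), from 6 separate peaks. The divergent pair hta1 and htb1 shared a peak of fold 4.55, pht1, which encodes the H2A.Z variant, had 3.20, and hht2 had 2.59. Iron uptake genes had a summit at 8 of 16, again from 6 peaks. The divergent pair fio1 and fip1, iron oxidase and permease, shared a peak of 3.45, and the siderophore genes sib1 and sib2 a peak of 3.42. Php4, the iron-responsive repressor gene, had 2.65. In fatty acid and sterol synthesis 8 of 21 (38.1%) had a summit, led by erg11 at 3.82 and the desaturase gene ole1 at 3.18.

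A list could have many summits and few high ones. Of 20 genes of the G1-S transition, 11 (55.0%) had a summit but 1 (5.00%) had one of fold at least 3, which was cdc10, a subunit gene of the MBF transcription factor, at 4.03. The others included cdc18 at 2.88, mik1 at 2.83, cdc22 at 2.21 and cdt1 at 2.17. Of 139 cytosolic ribosomal protein genes, 51 (36.7%) had a summit and 2 (1.44%) had one of fold at least 3, rpl4102 at 3.79 and rpl42 at 3.02. The median top fold of the bound ribosomal protein genes was 2.08, below the 2.44 of all bound genes. This list, drawn by gene symbol, also takes in the RNase P and MRP subunit genes rpp1, rpp21 and rpp40, which had no summit in their windows. Its member rpl701, at 2.13, is annotated both as an RNase MRP subunit and as like ribosomal protein L7.

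Lists near the background were those of mating, heterochromatin, flocculation, meiosis and the proteasome. Mating and meiotic entry genes had a summit at 9 of 28 (32.1%) and a fold of at least 3 at 2 of these, cgs2 at 4.87 and ste6 at 4.83. Ste11, the master transcription factor gene of mating and named here as a textbook target outside the rule, had 1.75 with a summit 193 bp upstream. Heterochromatin factor genes had a summit at 7 of 28, the highest at raf2 with 3.22, and clr4, the H3K9 methyltransferase gene, had 2.07. Flocculin genes and their regulators had one at 5 of 18 (27.8%), led by cbf12 at 3.18 and sre2 at 3.16. Proteasome genes had one at 6 of 31 (19.4%), with both copies of rpn5 (rpn501 at 4.10 and rpn502 at 3.82) above the rest. Of 91 meiotically upregulated (mug) genes 23 (25.3%) had a summit, while 11 (12.1%) had one of fold at least 3, among them mug143, mug24 (5.10), mug108 (4.97), mug150 (4.88) and mug163 (4.41). The mug150 window shares its peak with srk1. Several genes stand in 2 lists, such as cgs2, scr1, prr1 and gpd1.

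Of the marker genes named in the genotype, ura4 and ade6 were looked up. No Atf1 peak lay in ura4 or within 1000 bp upstream of it, and the nearest summit was 1910 bp from its start, beyond the gene's end, at a fold of 2.82. No peak lay at ade6, whose nearest summit was 2581 bp upstream at 1.76. The ura4-D18 allele is known as a deletion of the gene, so reads aligned to ura4 would come from the copy that replaces cenH in the mating-type region, which the untagged strain lacks.

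The core was counted over all 1609 summits where list and reference share coordinates. Against all positions between genes, where 3.09% have TGACGT within 100 bp, the share of summits with it was 15.7% over the list and 31.3% in the highest bin by fold, 5.09 and 10.1 times the share of positions. All 2080 words of 6 letters, with both strands joined, were ranked by the same ratio. In the highest bin TGACGT had rank 3. The words above it overlap it and read as parts of the same site. They were GACGTC, at a ratio of 10.5, and, at 10.4, the word ATGACG. The next, CGGGGC, had 7.30, at 15 summits. Against all positions of the genome TGACGT had the highest ratio of all words over the whole list, 5.03.

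Of the 18 words that differ from TGACGT by 1 letter, TGACGC had the highest ratio in the highest bin, 5.13, and the 2 lowest were TGAAGT and TGACTT at 0.816 and 0.696. The core stood close to the summit. In the 113 peaks of fold at least 3 that had it, the nearest core lay at a median of 1 bp from the summit with quartiles of −10 and 12 bp, and in 83 (73.5%) it lay within 25 bp.

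Seen from the DNA, many copies of the core carried no Atf1 peak. Of the 401 copies of TGACGT between genes, counting a palindrome as 1, 195 (48.6%, 43.6 to 53.6) lay inside a peak, where peaks cover 14.1% of such bases. In coding sequence 109 of 988 copies (11.0%, 9.15 to 13.2) lay inside a peak, which covers 3.32% of those bases. The base before the core, examined after the list had been seen and without the palindromes, divided the copies further. Between genes, 70 of 80 copies preceded by A (87.5%, 78.2 to 93.8) and 51 of 64 preceded by G (79.7%, 67.8 to 88.7) lay inside a peak. After C it was 16 of 63 (25.4%, 15.3 to 37.9), and after T 37 of 171 (21.6%, 15.7 to 28.6).

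The same order held in coding sequence, with 46.6% of 103 copies after A, 19.0% of 116 after G, 6.73% of 208 after C and 4.16% of 553 after T. Purine and pyrimidine thus separated the copies in both places beyond the counting intervals. Of the longer forms between genes, TGACGTCA lay inside a peak in 21 of 23 copies and TGACGTAA in 25 of 32. TGACATCA, the octamer of the SPAC186.03, nhp6 and gut2 peaks, did so in 47 of 75 (62.7%, 50.7 to 73.6). Without the copies that first showed it, the count was 44 of 72 (61.1%, 48.9 to 72.4). In coding sequence TGACGTCA lay inside a peak in 2 of 8 copies, TGACGTAA in 4 of 31 and TGACATCA in 7 of 99 (7.07%).

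Peaks with TGACGT within 100 bp of the summit had a median fold of 2.84 (n = 253), with quartiles of 2.11 and 4.04. Those with TGACATCA and no TGACGT had 3.78 (n = 41), with quartiles of 2.75 and 4.69, and those with neither had 2.21 (n = 1315), with quartiles of 1.93 and 2.64. The 41 peaks include the 3 in which the word was noticed, and without these the median was 3.66 (n = 38), with quartiles of 2.62 and 4.63. The word was picked from peaks of highest fold, so this level is not independent of that choice. Neither word was present at 61.4% of the summits in the highest bin and at 90.0% in the lowest.

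In promoters read over the 250 bp before and the 50 bp after the start, TGACGT was present in 234 of 4090 genes (5.72%). Of these 234 genes 133 (56.8%) had an Atf1 summit in the promoter window. The core was present in 12.1% of the 1099 promoters with a summit and in 3.38% of the 2991 with no summit. Among the 326 promoters with a summit of fold at least 3 the share was 24.2%. TGACGTCA was present in 12 promoters, of which 11 had a summit of fold at least 3.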

How the data were processed

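ChIP-seq peaks were taken from 4 lists deposited by the authors. Bowtie 1.2.3, MACS2 2.1.2 and bedtools are named in the submitters' processing notes, with no order or settings. The build behind the list's positions is unknown here. Each deposited record gives a fold enrichment (a ratio), the −log10 of a p-value and q-value, a score (10 times the −log10 q) and a summit offset. Where the offset fell outside the interval (129 of 1995 peaks) the midpoint was used. Fold was used to describe and rank peaks within the list only.

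Positions were set against RefSeq ASM294v3. The list runs 12185 bp past the end of its chromosome 2. Left of 2110000 positions were used as they are, right of 2160000 they were reduced by 12220 bp to look up genes (371 peaks), and the 15 peaks between were not placed. Sequence right of 2110000 on chromosome 2 was left out of the word counts and printed sequences. For a check of the shift only, TGACGT was looked for right of 2160000 within 100 bp of summits of fold at least 3. It was found at 28 of 68 (41.2%), at a median of 6 bp from the summit. Elsewhere it was found at 113 of 344 (32.8%), at a median of 1 bp. Peak coordinates are printed as the list gives them. Background shares of bases for the place of summits and the promoter windows are over all bases outside the unplaced stretch. Those for TGACGT are over the positions named beside them, on chromosome 2 only left of 2110000.

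Named genes are the 20 peaks of highest fold, up to 5 bound genes of each list by fold, atf1, pcr1, ura4, ade6, up to 5 genes with most summits, the 5 widest peaks, the 3 largest gaps and the 3 closest pairs. Members, gene lists and alternatives were chosen with earlier results of these data known. Some items that this rule names are not reported here. No test was run, since there is 1 list. Intervals are exact Clopper-Pearson 95% intervals. Depth per sample is unknown. Scripts (Python 3.11.15, pandas 2.3.3) were tested on planted positions.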

Additional observations from a re-analysis of the deposited data

How the results depend on the processing

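The 7 summary values were recomputed under 38 combinations of value and setting, of which 17 stayed within the counting interval (for counts, within 1.5 times) and 21 moved. All 7 values moved with a threshold on the caller's values. With a −log10 q of at least 10 there were 758 peaks of median width 566 bp and spacing 10633 bp, 70.1% of summits in promoter windows, 628 genes, the core at 26.3% and a median distance to the start of 344 bp. With a fold of at least 3 these values were 416, 752 bp, 21337 bp, 76.5%, 384, 32.8% and 262 bp. Merging peaks within 200 bp gave a width of 293 bp and a spacing of 4734 bp. A window of 500 bp upstream to 100 bp downstream held 44.9% of summits on 22.1% of bases, against 60.4% on 40.2% for the main window. The core was found at 12.9% of interval midpoints, at 13.4% of summits within 50 bp and 19.3% within 250 bp, and its palindrome at 1.37%. A shift by the length the list runs past the reference, leaving out the right arm of chromosome 2, and taking only summits inside their interval moved none of the values recomputed under them. No paired analysis was possible because the 2 Atf1 precipitations are represented by 1 list, so the agreement between them is unknown. Precision is limited by this and by the unknown depth, and no value here shows whether a low peak would be found again.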
